A study of Mus musculus with 83 samples.

Results

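Hspa8 was followed here as a single gene, 1 of the 55367 genes in the largest of the deposited count tables, through all 24 RNA polymerase II (Pol II) libraries that have gene counts. The gene was picked by name because its Pol II occupancy was already known to change in these libraries, so its own levels and fold changes are given as a description, with no test. Hspa8 encodes HSC70, the Hsp70 chaperone that cells make all the time. Like other Hsp70 proteins it binds and releases unfolded stretches of client proteins in a cycle driven by ATP, with J-domain proteins loading the clients and nucleotide exchange factors releasing them. HSC70 also strips clathrin coats from vesicles together with the J-domain proteins auxilin and GAK, and it brings proteins to the lysosomal receptor LAMP2. Heat shock strongly induces the related genes Hspa1a and Hspa1b, while Hspa8 is already active in unstressed cells. Its introns carry small nucleolar RNAs (snoRNAs) of the Snord14 family, which act in the maturation of ribosomal RNA.

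The series used CUT&Tag, in which an antibody brings a transposase to its target so that sequencing adapters are inserted there, in mouse embryonic stem cells (mESCs), with 83 samples for Pol II, TBP, TFIID, TFIIA and other factors. C64 mESCs are a JM8.N4 line with the mAID degron on both copies of the gene for the TATA-binding protein TBP. They also carry a HaloTag on the largest Pol II subunit. Indole-3-acetic acid (IAA) depletes the tagged TBP, and the study states that part of it remains. Every line in the series carries the degron, so effects of IAA itself and of TBP loss cannot be told apart. B8 mESCs are 1 clone of C64 that has lost Tbpl1, which encodes TRF2, a paralog of TBP, and the study states that histone H3.3 carries GFP in every line it used. Runs are numbered as in the sample labels. Run 2 held C64 heat shock +IAA, C64 heat shock (HS), C64 +IAA for 6 h and C64 control. Run 3 held C64 retinoic acid (RA) +IAA, C64 RA, C64 +IAA for 16 h and C64 control. Run 6 and run 8 each held B8 +IAA for 6 h and B8 control. Each of these 12 groups had 2 libraries. IAA was used at 500 µM, HS lasted 30 min at 42 °C after 6 h with or without IAA, RA was labelled as 25 µM for 16 h although the study's methods state a lower dose, and controls, labelled untreated, received DMSO. Libraries are called a and b where the columns carry no replicate number (run 2, and run 8 of B8) and 1 and 2 where they do (run 3 and run 6).

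In the tables Hspa8 spans chr9:40800984-40810087 (GRCm38, plus strand), a window of 9104 bases in which reads were counted, introns included. The RefSeq gene ends much earlier, at position 40805202, and fills 43.1% of that window. Only 1 of the 10 annotated transcripts, the non-coding Hspa8-210, runs past the RefSeq end, by 4885 bases. The main coding transcript, which starts at the first base of the window, has 9 exons and 8 introns, with its coding part between positions 40801923 and 40805114. Levels per kb given for Hspa8 are divided by the whole window, so they are lower than they would be over the RefSeq gene alone.

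Introns 5, 6 and 8 of this transcript hold the snoRNA genes Snord14c (chr9:40803583-40803668), Snord14d (chr9:40803995-40804080) and Snord14e (chr9:40804748-40804837), all on the plus strand, which make Hspa8 a snoRNA host. They are shown because the comparison with other hosts below rests on them, from the GRCm38 genome at their GENCODE positions, with the C box TGATGA and the last CTGA, the D box, in capitals.
Snord14c: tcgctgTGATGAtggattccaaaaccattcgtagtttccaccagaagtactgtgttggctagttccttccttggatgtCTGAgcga
Snord14d: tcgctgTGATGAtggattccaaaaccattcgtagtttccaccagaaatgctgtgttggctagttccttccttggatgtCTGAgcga
Snord14e: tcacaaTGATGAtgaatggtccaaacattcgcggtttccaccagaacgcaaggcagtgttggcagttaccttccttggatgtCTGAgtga
Snord14c and Snord14d were identical at 97.7% of aligned positions, and each of them matched Snord14e at 79.6%. Both motifs together, read on the RNA strand, occur in 25.2% of the 1507 annotated mouse snoRNA genes. As separate genes all 3 had 0 counts in all 24 libraries. The counting command recorded in the B8 tables has no option to assign a read that overlaps more than 1 gene, so this 0 is no measurement of Pol II over the snoRNAs. By the same rule, reads that overlap a snoRNA gene would be missing from the counts of Hspa8 and of other hosts.

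A deposited list of genes with a TATA box, the promoter element that TBP binds, names Hspa8, and the deposited TATA-less list does not. For comparison, 18.6% of the 27752 genes in the C64 tables are on the TATA list and 61.6% on the TATA-less list, so some are on neither. Promoter windows, 250 bases before to 50 after the start, are printed for 3 genes that the results below turn on, as given by RefSeq for GRCm38.p6. They belong to Slc35b2 (chr17:45563686-45563985, plus strand) and the non-coding snoRNA host 1110038B12Rik (chr17:34952422-34952721, minus strand), whose Pol II pattern was like that of Hspa8, and to Hsph1 (chr5:149636287-149636586, minus strand), the family member with the largest rise after HS. Capitals mark TATAAA and the heat shock element letters GAANNTTC and TTCNNGAA, searched on both strands, with matches allowed to overlap.
Slc35b2: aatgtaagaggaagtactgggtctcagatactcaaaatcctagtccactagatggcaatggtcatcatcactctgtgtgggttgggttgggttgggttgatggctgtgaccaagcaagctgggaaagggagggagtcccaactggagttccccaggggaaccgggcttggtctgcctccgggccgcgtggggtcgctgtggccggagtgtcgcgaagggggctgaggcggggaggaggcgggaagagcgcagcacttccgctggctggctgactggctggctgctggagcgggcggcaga
1110038B12Rik: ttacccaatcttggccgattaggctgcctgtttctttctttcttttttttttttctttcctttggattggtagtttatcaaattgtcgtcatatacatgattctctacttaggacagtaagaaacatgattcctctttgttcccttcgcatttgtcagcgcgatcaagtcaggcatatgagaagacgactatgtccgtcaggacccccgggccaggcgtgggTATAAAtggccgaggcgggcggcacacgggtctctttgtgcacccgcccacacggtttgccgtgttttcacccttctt
Hsph1: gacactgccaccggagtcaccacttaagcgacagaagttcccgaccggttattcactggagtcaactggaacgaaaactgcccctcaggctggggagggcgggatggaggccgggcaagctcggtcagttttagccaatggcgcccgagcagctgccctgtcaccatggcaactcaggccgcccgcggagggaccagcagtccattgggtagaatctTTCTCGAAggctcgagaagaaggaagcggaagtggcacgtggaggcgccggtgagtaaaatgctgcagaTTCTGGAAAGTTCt
The window of Slc35b2 held neither motif, that of 1110038B12Rik held TATAAA at position -28 from the start, and that of Hsph1 held 3 heat shock element matches, a pair of which overlap after the start. Of all 32851 promoter windows 13.6% held TATAAA on either strand and 15.1% held a heat shock element match. Among genes of the HSP70 system listed here, 44 had windows, of which 1 (Stip1) held TATAAA and 12 held a heat shock element match. A match describes the letters and says nothing of binding.

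Reads assigned to genes came to 3854622 to 5056322 per C64 library, 1021508 to 1232795 in B8 run 6 and 2464944 to 2638315 in B8 run 8. Levels are CPM, counts scaled to a common library size, with library sizes adjusted by the trimmed mean of M values (TMM) over all 24 libraries. Over all genes, replicate libraries correlated at 0.902 to 0.976 in log2 CPM. Library 2 of B8 control run 6 stood apart, with correlations of 0.877 to 0.902 with the other B8 controls. Tbpl1, the gene deleted in B8, had 0 to 10 counts in B8 libraries and 29 to 75 in C64 libraries. Tbp, whose protein is depleted while its gene remains, had 26 to 117 and 93 to 218. Of 10 stem cell markers 9 were above 0 in every library, and Sox2, which lies inside the gene Sox2ot, was at 0 in all of them. Fibroblast markers summed to 39.8 to 147 CPM over 7 genes, Pdgfrb and Col1a1 the most abundant, with Lum, Dcn and Col3a1 at 0 in some libraries. Primitive endoderm markers summed to 134 to 295 CPM over 6 genes, Gata4 the most abundant. Gata4 and Gata6 were also above 0 in every library, so a level above 0 does not by itself mark a cell type. These are bulk libraries, so less Pol II over Hspa8 in each cell and fewer cells with Pol II there cannot be told apart.

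Across the 24 libraries Hspa8 carried between 76 and 3210 counts. The lowest count corresponds to 62.5 CPM with an exact Poisson 95% interval of 49.2 to 78.2 CPM, and the highest to 683 CPM with an interval of 660 to 707 CPM. Such intervals cover counting error only, and PCR duplicates were kept. The interval of the lowest library spans the means of the 2 groups with the lowest levels.

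By mean level the order of groups was C64 HS (649 ± 48.4 CPM), C64 control run 2 (565 ± 88.9), C64 HS +IAA (357 ± 45.7), B8 control run 8 (345 ± 31.8), C64 control run 3 (318 ± 142), C64 RA (249 ± 120), B8 control run 6 (214 ± 69.6), C64 +IAA 6 h (169 ± 1.34), B8 +IAA run 8 (112 ± 8.98), C64 +IAA 16 h (78.8 ± 50.9), C64 RA +IAA (71.8 ± 30.1) and B8 +IAA run 6 (68.6 ± 8.69; SD, n = 2 each). Of the 11 steps in this order only 2 separated groups whose libraries did not overlap, that between C64 control run 2 and C64 HS +IAA and that between C64 +IAA 6 h and B8 +IAA run 8. The order also mixes runs. The C64 controls of run 3 were lower than those of run 2 by 0.81 ± 0.26 on the log2 scale, and B8 controls were lower than C64 controls of run 2 (95% interval of the difference -1.35 to -0.65), where line and run cannot be told apart. Here and below, 95% intervals of differences in log2 values use a normal approximation. They are likely too narrow for so few libraries, and they are no test.

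**Figure D1:**
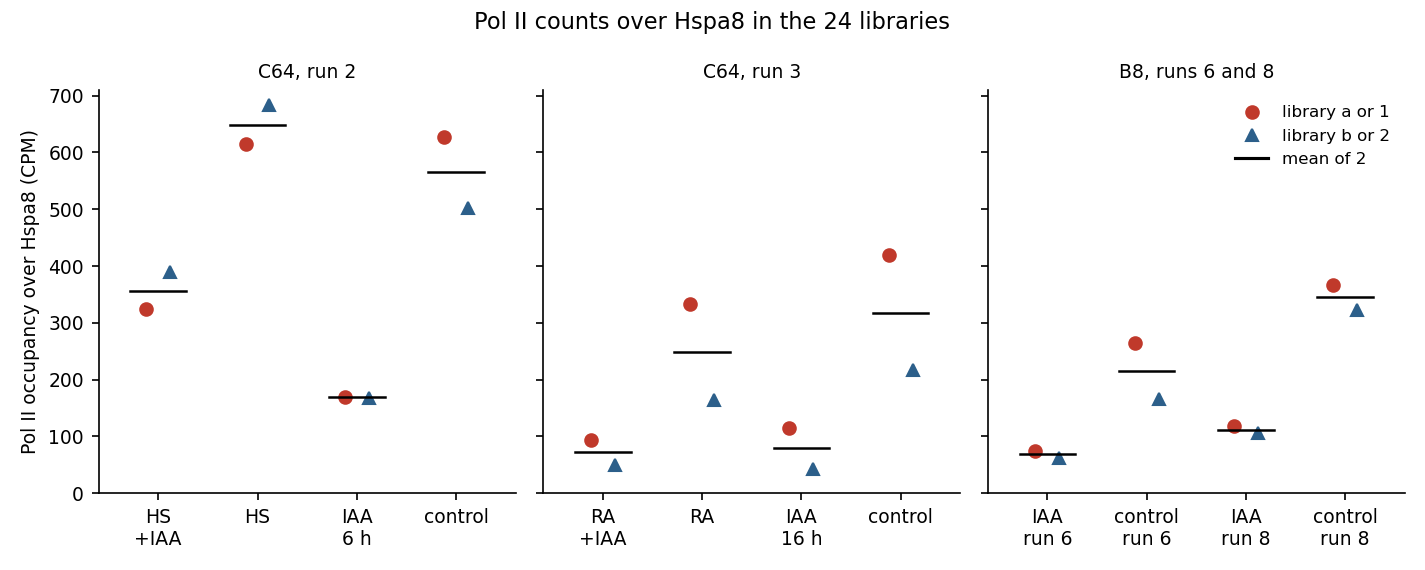
Pol II occupancy over Hspa8 in each of the 24 libraries, in CPM, by group, with circles for libraries a or 1, triangles for libraries b or 2 and bars for the mean of 2. In each panel the +IAA libraries lie below their partners without IAA, and in run 3 library 1 is above library 2 in every group.

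Replicates of Hspa8 agreed much better in run 2 than in run 3. The higher library exceeded the lower 1.01 to 1.25 times in the run 2 groups, 1.84 to 2.68 times in the run 3 groups and 1.12 to 1.60 times in the B8 groups. In run 3 library 1 was the higher in all 4 groups, and its library numbers marked a shared deviation over all genes too (correlation of residuals 0.422 to 0.627 over 6 pairs of groups). Fits that take the number as a block are therefore reported too.

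Does Pol II over Hspa8 in C64 mESCs change with 6 h of IAA, which depletes TBP? Counts were 811 and 772 in +IAA libraries a and b, against 2937 and 2336 in controls, which is 169 and 168 CPM against 628 and 502 CPM. Both +IAA libraries lay well below both controls. The log2 fold change was -1.73 ± 0.15 (SE, n = 2 each), or 30.1% of the control level, and -1.73 ± 0.09 with library name sets as a block. This was rank 5 from the lowest among 16157 genes. Library a held 27.0% and library b 33.4% of its control.

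After 16 h of IAA Hspa8 had 551 and 183 counts, or 115 and 42.9 CPM, in libraries 1 and 2, against 1950 and 978 counts, or 419 and 217 CPM, in the controls of run 3. Library 1 with IAA was thus still below library 2 of the control. The log2 fold change was -1.99 ± 0.44, or 25.1% of control, rank 2 from the lowest among 16349 genes, and -2.05 ± 0.12 with the block. It was -2.87 without IAA library 1 and -1.45 without IAA library 2. Between the durations the change differed by -0.27 ± 0.52 on the log2 scale (95% interval -1.28 to 0.75, 16 h minus 6 h), and with a block in each run by -0.33 ± 0.16 (-0.64 to -0.02), a difference that includes that between run 2 and run 3. With so few libraries the second interval is not read as excluding 0.

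After heat shock alone the libraries overlapped those of controls when scaled over all 24 libraries, and did not when only these 4 were scaled together. The HS libraries had 3057 and 3210 counts, or 615 and 683 CPM, against 628 and 502 CPM in controls. The log2 fold change was 0.23 ± 0.25, or 117% of control. In libraries a it was 97.9% and in libraries b 136%. With TBP depleted, HS +IAA libraries had 324 and 389 CPM against 169 and 168 CPM in +IAA libraries. The log2 fold change was 1.09 ± 0.26, or 213%, with no overlap. Under HS the IAA libraries were at 324 and 389 CPM against 615 and 683 CPM without IAA, a log2 fold change of -0.85 ± 0.24 (-0.85 ± 0.10 with the block), or 55.6%, rank 91 from the lowest among 16628 genes. The log2 fold change with IAA was nearer 0 under HS than without it, by 0.89 ± 0.29 (95% interval 0.32 to 1.46), and with the block by 0.89 ± 0.23 (0.43 to 1.34). This difference is given as a size, since the contrast was known when the gene was chosen.

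Retinoic acid, which drives mESCs out of pluripotency, was compared in run 3. RA libraries had 1589 and 717 counts, or 333 and 164 CPM, against 419 and 217 CPM in controls, with overlap. The log2 fold change was -0.35 ± 0.39 (-0.36 ± 0.11 with the block), and within pairs RA was at 79.6% and 75.5% of control. Leaving out control library 1 turned the value to 0.17, and leaving out RA library 1 gave -0.93. RA +IAA libraries had 456 and 217 counts, or 93.1 and 50.5 CPM, against 333 and 164 CPM with RA alone, without overlap. Here the log2 fold change was -1.78 ± 0.39, or 29.1%, rank 4 from the lowest among 16439 genes, and -1.77 ± 0.11 with the block. Within pairs RA +IAA was at 27.9% and 30.7% of RA. Relative to +IAA for 16 h, RA +IAA stood at -0.13 ± 0.45 with overlap, 0.72 without IAA 16 h library 1 and -0.66 without IAA 16 h library 2. The IAA effect with RA differed from that without by 0.23 ± 0.71 (95% interval -1.17 to 1.63), and with the replicate numbers as a block, added after seeing the data, by 0.30 ± 0.20 (95% interval -0.09 to 0.68). Among the stem cell markers Esrrb stood lower with RA, at 205 and 303 CPM in RA +IAA and 245 and 381 CPM in RA, against 482 and 865 CPM in +IAA and 701 and 996 CPM in controls. Of 8 markers tested 0 passed the threshold in RA against control, where all 8 values were below 0, and 2 fell with the block. In RA +IAA against +IAA 0 passed, 5 of 8 were below 0, and 1 fell with the block. Of the fibroblast markers Pdgfrb stood higher, at 99.6 and 93.2 CPM in RA +IAA and 64.2 and 83.1 CPM in RA, against 30.4 and 27.4 CPM in +IAA and 18.7 and 26.0 CPM in controls. The other fibroblast markers did not share this rise, as their libraries overlapped in both comparisons. The exception was Thy1 in RA against control, with 14 and 15 counts against 11 in each control. Col1a1 had a mean of 15.6 CPM with RA and 17.8 CPM in controls. The part of these markers in the Hspa8 values was not tested.

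In B8 mESCs, which lack TRF2, Hspa8 was also lower with IAA. Counts in run 6 were 90 and 76 with IAA, against 322 and 168 in controls, or 74.8 and 62.5 CPM against 264 and 165 CPM. In run 8 they were 271 and 246 with IAA, against 793 and 704 in controls, or 118 and 106 CPM against 367 and 322 CPM. All 4 +IAA libraries were below all 4 controls, and the 4-library means were 90.3 ± 26.1 CPM with IAA and 280 ± 87.2 CPM in controls (SD, n = 4). With run as a term the log2 fold change was -1.64 ± 0.13, rank 8 from the lowest among 13675 genes. It was -1.72 ± 0.24 in run 6 alone, -1.60 ± 0.10 in run 8 alone and -1.72 ± 0.10 without the control library that stands apart. The IAA effect in B8 minus that in C64 at 6 h was 0.09 ± 0.21 (95% interval -0.33 to 0.51), a difference that also holds that between runs.

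**Figure D2:**
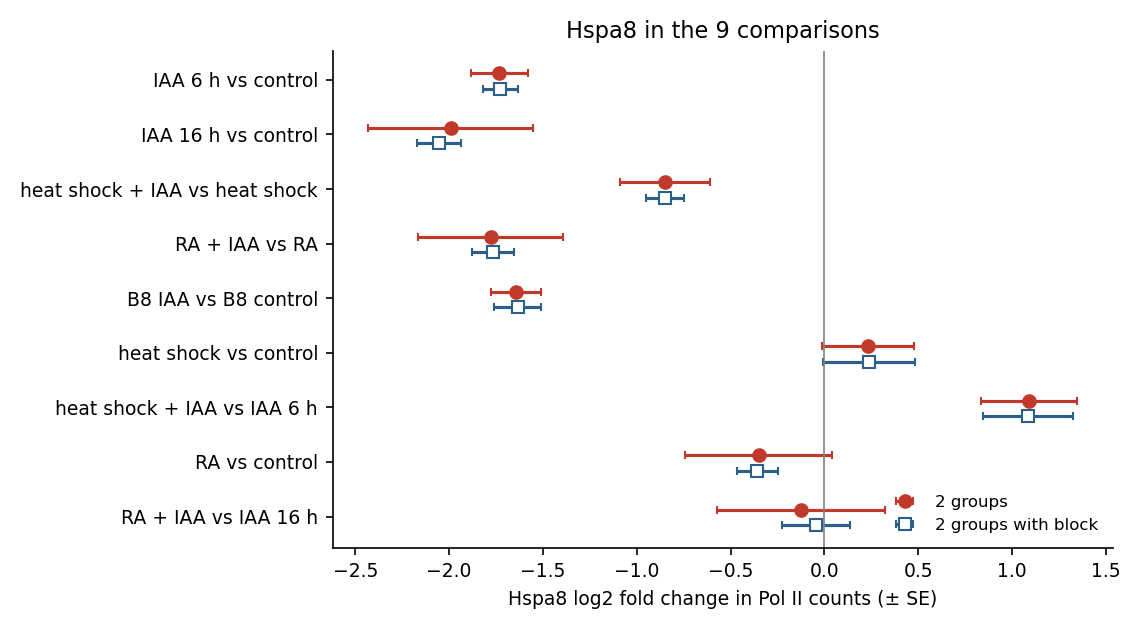
Log2 fold change of Pol II counts over Hspa8 in the 9 comparisons, with bars for ± SE, from fits of the 2 groups (circles) and from the same fits with library numbers or name sets as a block (squares). The 5 comparisons with IAA against no IAA lie between -1.99 and -0.85 without a block, and HS +IAA against +IAA is the only value above 1.

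Per kb of gene Hspa8 was among the most occupied genes of untreated mESCs. Only 22 and 26 genes with at least 20 counts had more Pol II per kb in C64 controls of run 2, 42 and 55 in those of run 3 and 44 to 54 in B8 controls. With IAA the number of genes above it was 206 and 169 after 6 h, 350 and 1452 after 16 h, 611 and 856 with RA and 266 to 773 in B8. After HS it was 24 and 23 with IAA and 14 and 8 without IAA, so that Hspa8 was close to the top of the list in heat-shocked cells in either case.

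Within the HSP70 family of 15 genes Hspa8 had the most Pol II per kb in 15 of 24 libraries, and in all 10 libraries that had neither IAA nor HS. Hspa5, which encodes BiP, the Hsp70 of the endoplasmic reticulum, was ahead of it in 7 libraries, all with IAA, namely the 4 of B8, both with RA and IAA 16 h library 2. The IAA 16 h library 2 placed Hspa8 at rank 5, with 4.71 CPM per kb for Hspa8 and 9.53 CPM per kb for Hspa5. Hsph1, an HSP110 gene whose protein acts as a nucleotide exchange factor, was ahead in HS +IAA library a (44.9 against 35.6 CPM per kb) and in HS library a (79.0 against 67.5 CPM per kb). In the b libraries of these groups Hspa8 was ahead.

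Mean levels per kb show how the rest of the family compares in run 2, given for HS +IAA, HS, +IAA and control in turn. Hspa8 had 39.2 ± 5.02, 71.3 ± 5.32, 18.5 ± 0.148 and 62.1 ± 9.77 CPM per kb. The heat-inducible pair Hspa1a and Hspa1b was low outside HS, with 6 to 11 counts for Hspa1a and 26 to 51 counts for Hspa1b in the +IAA and control libraries, and 50 to 170 and 169 to 447 counts after HS. These near-identical genes share reads, so their separate values are uncertain. Hspa4, which encodes another exchange factor, had 4.08 and 8.47, 5.65 and 9.23, 11.8 and 12.7, and 12.0 and 12.0 CPM per kb in libraries a and b, and Hspa9, the mitochondrial Hsp70, 4.46 and 5.12, 5.33 and 6.55, 7.83 and 7.25, and 7.79 and 8.18 CPM per kb. Both were below Hspa8 in every run 2 library.

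Of all counts over the family the share over Hspa8 was 16.1% and 18.2% in HS +IAA, 18.7% and 23.5% in HS, 14.3% and 14.1% in +IAA and 35.5% and 31.7% in controls of run 2. In run 3 it was 8.30% and 6.33% in RA +IAA, 22.3% and 17.4% in RA, 10.9% and 5.41% in +IAA and 27.5% and 21.9% in controls. B8 had 7.40 to 11.7% with IAA and 20.2 to 26.3% in controls. In every IAA comparison the shares with IAA did not overlap those without. After HS the share was lower than in controls although the Hspa8 level was not, as counts over Hsph1 came to 8673 and 5847, against 424 and 431 in controls.

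**Figure D3:**
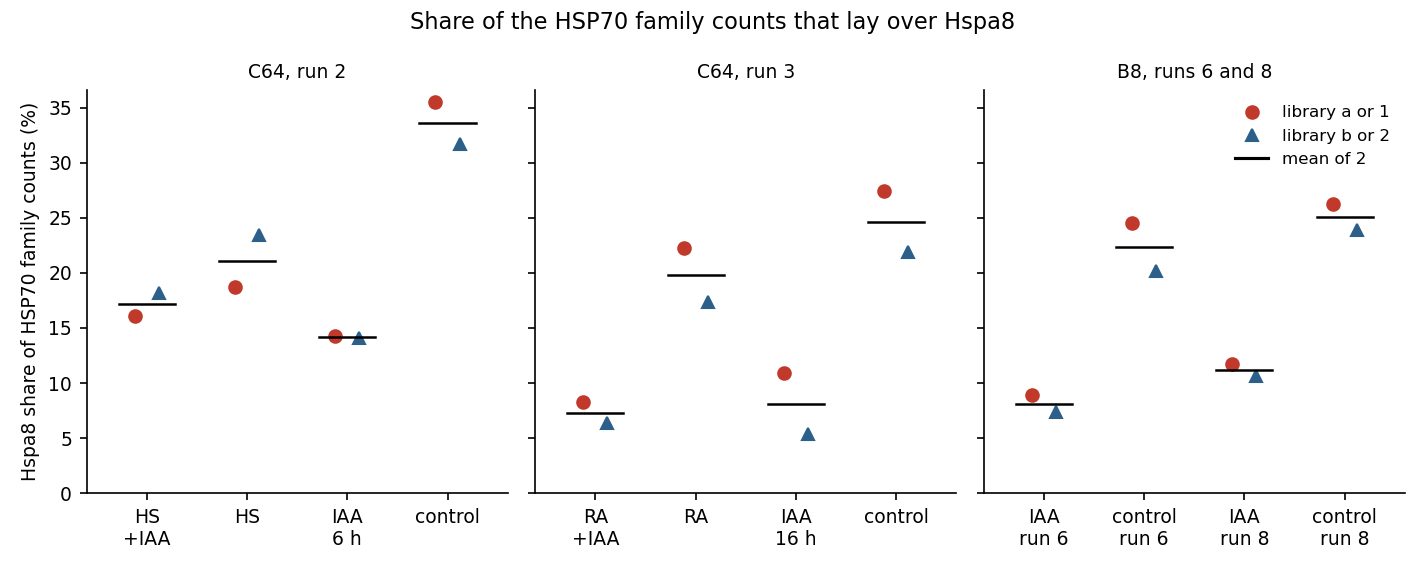
Share of all counts over the 15 HSP70 family genes that lay over Hspa8, in percent, for each library, with bars for the mean of 2. Controls of run 2 sit at 35.5% and 31.7%, and the libraries with IAA lie between 5.41% and 18.2%.

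The other genes of the HSP70 system were tested gene by gene. Their list was also drawn up with earlier results of these data known, so the calls are no independent support for a pattern. The list holds 54 genes, among them the family, J-domain proteins, exchange factors and other cochaperones, the HSP90 genes that receive clients from HSC70, clathrin genes and Lamp2. Differences were tested with edgeR's quasi-likelihood test and Benjamini-Hochberg adjustment over all genes at a threshold of 0.05, and are log2 fold changes ± SE. Shares of all genes called are given only for these fits and for the same fits with a block. Counts by other tests or with libraries left out have no such share beside them. The study calls the libraries of a group biological replicates without saying whether they came from separate cultures, so p-values measure only the spread between these libraries.

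After 6 h of IAA 0 of 53 system genes passed the threshold, with 0.0433% of all genes called, an unadjusted p under 0.05 for 4 system genes, and 1 called by edgeR's likelihood-ratio test and 1 by DESeq2. The list median was -0.07 and that of all genes 0.00. With the library sets as a block, where 1.19% of all genes were called, 3 fell. These were Hsp90ab1, the constitutive HSP90 gene (-1.06 ± 0.09, adjusted p = 3.02e-26), Hspa5 (-0.69 ± 0.11, adjusted p = 5.91e-07) and Hsph1 (-0.43 ± 0.12, adjusted p = 0.0314). Hsp90ab1 had 203 and 187 CPM with IAA, against 493 and 337 CPM in controls, and Hspa5 73.3 and 65.5 CPM against 132 and 95.9 CPM. In both genes the groups did not overlap, and both values without the block were close to those with it (-1.08 ± 0.18 and -0.70 ± 0.18).

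At 16 h 0 of 53 passed, as did 0% of all genes, with 2 system genes below an unadjusted p of 0.05 and 0 called by the likelihood-ratio test or DESeq2. The list median was -0.04 and that of all genes 0.01. With replicate numbers as a block 4 fell, beside 2.16% of all genes. They were Hsp90ab1 (-1.24 ± 0.11, adjusted p = 7.56e-24), Hspa5 (-0.95 ± 0.13, adjusted p = 1.56e-10), Hsph1 (-0.58 ± 0.15, adjusted p = 0.00885) and Hsp90aa1, the heat-inducible HSP90 gene (-0.53 ± 0.11, adjusted p = 0.000567). The number called without the block changed when control library 2 was left out, which leaves 1 library in that group. In these 4 genes the adjusted p without the block was 0.999.

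In HS +IAA against HS 0 of 54 system genes and 0% of all genes passed, with 5 system genes below an unadjusted p of 0.05 and 0 by the likelihood-ratio test or DESeq2. The list median was -0.13 and that of all genes -0.01. With the block (0.65% of all genes) Hspa5 (-0.93 ± 0.14, adjusted p = 6.77e-08), Hsph1 (-0.66 ± 0.09, adjusted p = 1.01e-10) and Hsp90ab1 (-0.62 ± 0.11, adjusted p = 1.5e-05) fell. Hsph1 had 991 and 859 CPM in HS +IAA, against 1744 and 1245 CPM in HS, still far above the 60.6 to 92.6 CPM of the run 2 libraries without HS.

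RA +IAA against RA gave 0 of 52 system genes and 0% of all genes, with 0 system genes below an unadjusted p of 0.05 and 0 by the likelihood-ratio test or DESeq2. With the block (1.04% of all genes) Hsp90ab1 (-1.03 ± 0.12, adjusted p = 1.67e-08), Hspa5 (-0.71 ± 0.12, adjusted p = 0.000134) and Hyou1, an HSP110-like gene of the endoplasmic reticulum (-0.60 ± 0.15, adjusted p = 0.0289), fell. In all 3 the libraries of the groups overlapped.

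In B8 2 of 48 system genes fell with IAA, beside 5.68% of all genes called in either direction and 3.29% called lower. The count of 2 is thus near the background. An unadjusted p under 0.05 was seen for 16 of the 48. Dnajc6, which encodes auxilin, was lower by -0.70 ± 0.14 (adjusted p = 0.0110) with 73.9, 74.0, 73.8 and 69.2 CPM with IAA, against 89.2, 116, 119 and 140 CPM in controls. Hsp90ab1 was lower by -0.76 ± 0.15 (adjusted p = 0.0115), with 106, 108, 146 and 159 CPM with IAA, against 157, 105, 350 and 313 CPM in controls. Its groups thus overlapped through the control libraries of run 6. This count depended on single libraries. It was 7 without control library 2 of run 6. It was 0 without library b of either run 8 group and 1 without library a of either run 8 group. The share of all genes called is not given for these fits.

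Heat shock raised 12 of 54 system genes and lowered 0, beside 3.02% of all genes called. The median was 0.18, against 0.03 for all genes. Rises were led by Hsph1 (4.06 ± 0.27, adjusted p = 1.17e-06), Hspa1a (3.29 ± 0.55, adjusted p = 0.00345), Hspa1b (2.82 ± 0.31, adjusted p = 0.000314) and Stip1, which encodes the adaptor HOP that links HSC70 to HSP90 (2.04 ± 0.25, adjusted p = 0.000669). Hspa4l, an HSP110-related gene, rose by 1.98 ± 0.26 (adjusted p = 0.000941), the clathrin light chain gene Cltb by 1.92 ± 0.33 (adjusted p = 0.00625), the J-domain gene Dnajb1 by 1.81 ± 0.30 (adjusted p = 0.00454) and the HSP90 cochaperone gene Fkbp4 by 1.81 ± 0.27 (adjusted p = 0.00236). The other 4 were Dnaja1, Bag3, Ahsa1 and Hsp90aa1. Hspa8, at 0.23 ± 0.25, lay below the values of all 12. With the block 13 rose and 2 fell (8.41% of all genes), St13 being added above and Hspa4 (-0.70 ± 0.24, adjusted p = 0.0431) and Bag6 (-0.69 ± 0.22, adjusted p = 0.0317) below. The number called also changed when HS library b was left out, which leaves 1 library in that group.

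With TBP depleted, HS raised 10 of 54 system genes and lowered 0, beside 1.4% of all genes called. Hsph1 (3.78 ± 0.29, adjusted p = 7.27e-05), Hspa1a (3.40 ± 0.50, adjusted p = 0.00642), Hspa1b (3.14 ± 0.35, adjusted p = 0.00137) and Cltb (2.12 ± 0.31, adjusted p = 0.00934) led, followed by Hspa4l, Fkbp4, Stip1, Dnajb1, Dnaja1 and Bag3 with 1.28 to 1.95. Here the value of Hspa8, 1.09 ± 0.26, was close to the lowest of these. With the block 13 rose and 2 fell, beside 9.76% of all genes. The count without the block also changed when HS +IAA library b or +IAA library a was left out, which leaves 1 library in a group.

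**Figure D4:**
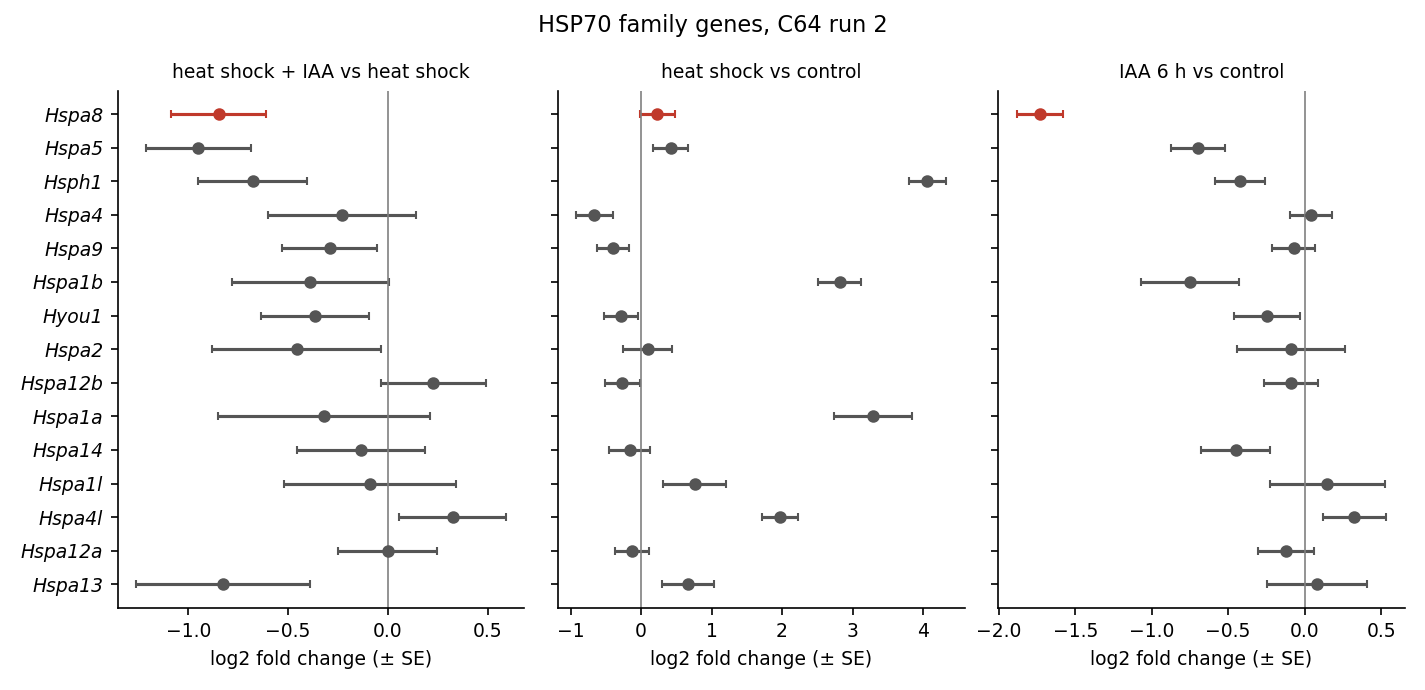
Log2 fold change ± SE of each HSP70 family gene in C64 of run 2 for HS +IAA against HS, HS against control and +IAA for 6 h against control, with Hspa8 in red. Hspa8 is at -1.73 with IAA, below all other members, and at 0.23 after HS, where Hsph1, Hspa1a, Hspa1b and Hspa4l lie between 1.98 and 4.06.

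RA against control gave 0 of 52 system genes and 0.0183% of all genes, with 4 system genes below an unadjusted p of 0.05, 1 by the likelihood-ratio test and 0 by DESeq2. With the block, where 11.4% of all genes were called, 3 rose and 7 fell. Hspa13, an Hsp70-like gene of the endoplasmic reticulum, rose by 1.51 ± 0.32 (adjusted p = 7.86e-05) and Dnajc6 fell by 1.16 on the log2 scale (SE 0.13, adjusted p = 9.37e-16), with 47.0 and 73.9 CPM with RA against 103 and 169 CPM in controls. The others were Hspa12a and Hyou1 (0.51 and 0.46) and Fkbp5, Hsp90ab1, Hsph1, Lamp2, Hsp90aa1 and Dnajb6 (-0.64 to -0.35). RA +IAA against +IAA gave 0 of 53, beside 0% of all genes, with 2 below an unadjusted p of 0.05 and 0 by the likelihood-ratio test or DESeq2. With the block it gave Dnajc6 alone (-0.84 ± 0.17, adjusted p = 0.00796), beside 1.82% of all genes called, so that 1 of 53 is near the background.

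Genes near Hspa8 on chromosome 9 were tested for changes of their own. Within 500 kb on either side 7 genes could be tested in C64 and 5 in B8. In each of the 9 comparisons 0 passed by the quasi-likelihood test, the likelihood-ratio test or DESeq2. An unadjusted p under 0.05 was seen for 0 to 2. The quasi-likelihood test called 0% to 5.68% of all genes in these comparisons, so with so few neighbours 0 calls say little. DESeq2 gave no adjusted p for some neighbours, among them Bsx, Jhy and Crtam at 6 h of IAA. The nearest were Clmp, an adhesion gene that ends 15.7 kb before Hspa8 (-0.20 ± 0.18 after 6 h of IAA), the homeobox gene Bsx 64 kb after it (0.40 ± 0.30), Jhy 84.8 kb after it (0.06 ± 0.30), Crtam 160 kb after it (-0.11 ± 0.31) and Gramd1b 270 kb before it (-0.02 ± 0.14). In B8 Clmp stood at -0.17 ± 0.15 and Gramd1b at -0.22 ± 0.10. With replicate numbers as a block Gramd1b fell with RA against control (-0.44 ± 0.12, adjusted p = 0.00289), the only such call in the 9 comparisons, where 11.4% of all genes were called, so that 1 of 7 is near the background.

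Other protein-coding genes that host snoRNAs in their introns were compared with Hspa8, 32 in all, most of them genes of translation. This list too was drawn up with earlier results of these data known, so its calls and medians are no independent support for a pattern. Snx5, Rabggtb, Eif4a2, Eef1b2 and Tpt1 are among the genes the study itself lists as lower at 6 h. After 6 h of IAA 1 of 32 fell, Snx5, a sorting nexin gene (-1.32 ± 0.15, adjusted p = 0.0161, beside 0.0433% of all genes called), with 416 and 389 CPM with IAA against 1114 and 915 CPM in controls. The median of the hosts was -0.39, 27 of 32 values were below 0, and 15 had an unadjusted p below 0.05, and with the block 16 fell, beside 1.19% of all genes called. Among these 16 were Rabggtb, a prenyl transferase subunit gene (-1.08 ± 0.12, adjusted p = 9.51e-18), Eif4a2, an RNA helicase gene of translation initiation (-0.96 ± 0.10, adjusted p = 2.47e-20) and Eef1b2, an elongation factor gene (-0.95 ± 0.11, adjusted p = 2.38e-14). Each of these host values was nearer 0 than the -1.73 of Hspa8.

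At 16 h their median was -0.21, with 0 of 32 called, 3 at an unadjusted p under 0.05, 0 by the likelihood-ratio test, 1 by DESeq2 and 10 lower with the block (0% of all genes called, 2.16% with the block). In HS +IAA against HS the median was -0.36, with 0 called, 5 below an unadjusted p of 0.05 and 9 lower with the block (0% and 0.65% of all genes), and in RA +IAA against RA it was -0.12, with 0 called, 1 below an unadjusted p of 0.05 and 7 lower with the block (0% and 1.04% of all genes). In both, the likelihood-ratio test and DESeq2 called 0. In B8 11 of 32 fell and 0 rose, with a median of -0.41, beside 5.68% of all genes called in either direction and 3.29% called lower. The deepest were the ribosomal protein gene Rpl13a (-1.96 ± 0.32, adjusted p = 0.00288), Snx5 (-1.89 ± 0.13, adjusted p = 4.99e-06), Rabggtb (-1.65 ± 0.21, adjusted p = 0.000608), Rps3 (-1.10 ± 0.13, adjusted p = 0.000357), Taf1d (-1.07 ± 0.12, adjusted p = 0.000369) and Tpt1 (-1.04 ± 0.19, adjusted p = 0.00665). Rpl13a had only 7 to 16 counts in the +IAA libraries and 12 to 61 in controls.

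HS lowered 7 of 32 hosts and raised 0, with a median of -0.47, beside 3.02% of all genes called. Snx5 (-2.26 ± 0.31, adjusted p = 0.00138), Rabggtb (-1.62 ± 0.32, adjusted p = 0.0109), Eif4a2 (-1.51 ± 0.28, adjusted p = 0.00786), Rpl3 (-1.26 ± 0.29, adjusted p = 0.0273), Rpl5 (-1.25 ± 0.23, adjusted p = 0.00724) and Rpl21 (-1.05 ± 0.22, adjusted p = 0.0163) fell most, while Hspa8 was at 0.23 ± 0.25. Snx5 had 131 and 287 CPM after HS, against 1114 and 915 CPM in controls. With the block 11 fell, beside 8.41% of all genes called. With IAA present HS lowered Snx5 alone (-1.50 ± 0.30, adjusted p = 0.0294), with a median of -0.68 and 21 at an unadjusted p under 0.05, and 16 fell with the block (1.4% of all genes called, 9.76% with the block). RA against control called 0 of 32, with a median of -0.42, 0 at an unadjusted p under 0.05, 0 by the likelihood-ratio test or DESeq2 and 17 lower with the block (0.0183% of all genes called, 11.4% with the block). RA +IAA against +IAA called 0, with 1 at an unadjusted p under 0.05, 0 by the likelihood-ratio test or DESeq2 and 2 lower with the block (0% and 1.82% of all genes).

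Which genes had the Pol II pattern most like that of Hspa8? Over 17872 genes the log2 CPM of each gene, centred on the mean of its run, was correlated with that of Hspa8 over the 24 libraries, which share depth and run within groups, so the values are a description without a test. The closest were the Golgi sulfate-donor transporter gene Slc35b2 (r = 0.918), the lysosomal protease gene Ctsl (0.906), Hsp90ab1 (0.892), the protein disulfide isomerase gene P4hb (0.875), Traf7 (0.860), 1110038B12Rik (0.853), Pdlim7 (0.841), the poly(A)-binding protein gene Pabpc4 (0.836), Kirrel (0.834) and the poly(A)-binding protein gene Pabpc1 (0.834). In all, 18 genes exceeded 0.8 and 2 exceeded 0.9. By Spearman's rank correlation 7 of these 10 were again among the first 10, in C64 libraries alone 6, and without centring on the run 2.

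Slc35b2 had 204 and 190 CPM with IAA for 6 h, against 460 and 395 CPM in controls. Its log2 fold change in the 5 IAA comparisons was -1.11 ± 0.14 at 6 h, -1.41 ± 0.52 at 16 h, -0.60 ± 0.26 under HS, -1.39 ± 0.59 with RA and -1.03 ± 0.15 in B8, each nearer 0 than the value of Hspa8. It ends 103 bases from the end of Hsp90ab1 on the other strand of chromosome 17 (45563874 to 45567671 and 45567775 to 45573271), and counting took no account of strand, so the counts of these neighbours may share signal. The non-coding host 1110038B12Rik stood at -2.58 ± 0.32, -2.32 ± 0.36, -1.54 ± 0.41, -2.06 ± 0.43 and -2.10 ± 0.22 in the same order, all further from 0 than Hspa8. Of the 10 genes 7 are on the deposited TATA list (70.0%), as are 22 of the 54 HSP70 system genes (40.7%) and 15 of the 32 hosts (46.9%), against 18.6% of all genes in the C64 tables. The other 3 like genes and 32 system genes are on the TATA-less list. Some of all genes are on neither list, so 18.6% is not a like reference for these shares. The letters TATAAA alone gave another picture in the promoter windows, with matches in 2 of the 8 like genes that had a window (25.0%) and in 1 of 44 HSP70 system genes (2.27%), against 13.6% of all windows, so list and letters do not mark the same genes.

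**Figure D5:**
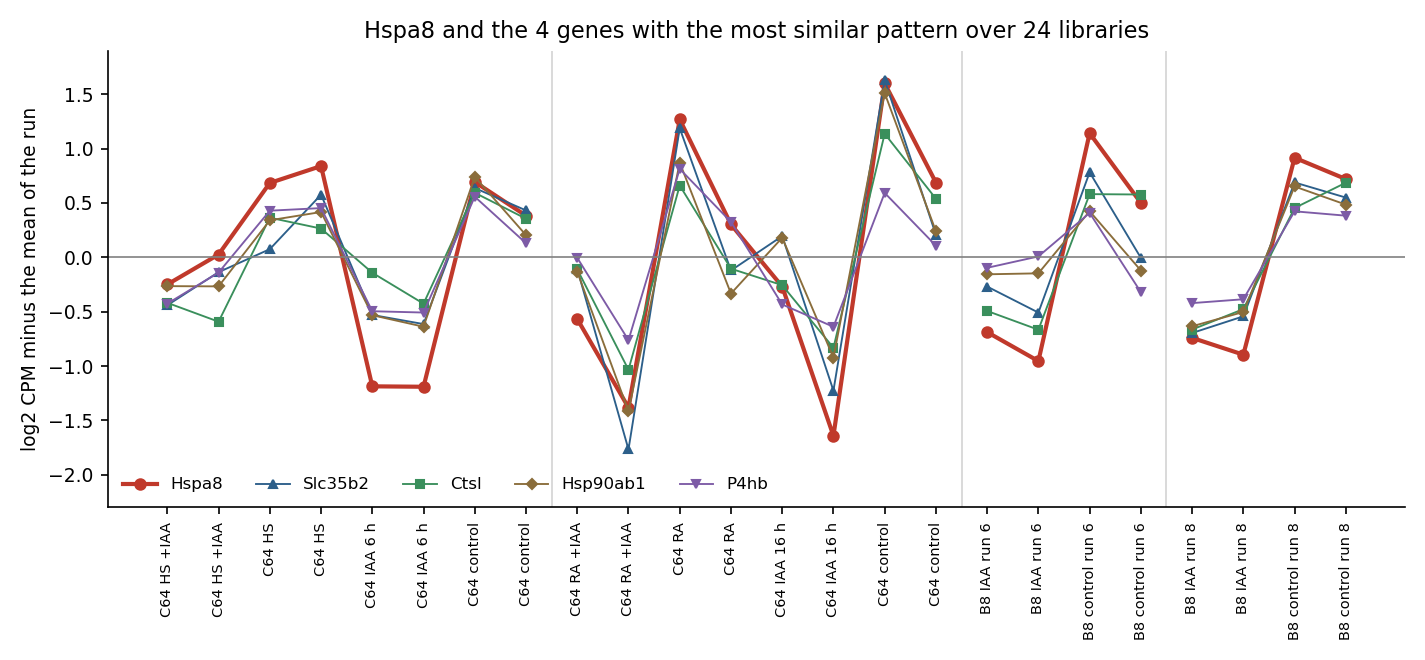
Centred log2 CPM of Hspa8 and the 4 genes most like it, Slc35b2, Ctsl, Hsp90ab1 and P4hb, in the 24 libraries. Hspa8 spans the widest range in run 2, with its lowest values in the 6 h +IAA libraries (-1.19 in both).

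Within the HSP70 family the correlation with Hspa8 was 0.799 for Hspa5, rank 20 of all genes, 0.618 for Hyou1, 0.430 for Hsph1, 0.377 for Hspa1b, 0.167 for Hspa1a and 0.0154 for Hspa9. Among snoRNA hosts Eef1b2 was the closest, with 0.810.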

How the data were processed

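Pol II CUT&Tag reads were aligned by the authors with Bowtie2 to mm10 and counted per gene with featureCounts 2.0.0, over whole genes and without strand, with PCR duplicates kept and runs subsampled. The deposited tables hold these raw counts. FastQC, bedtools and deepTools are also named in the submitters' processing notes. Deposited spike-in read numbers and TATA gene lists were used as given, and 14 columns repeated between tables were identical. Counts were tested per pair of groups with edgeR 4.0.16 in R 4.3.3 (TMM, filterByExpr with a minimum count of 20, quasi-likelihood test, run as a term for B8, adjusted p of 0.05), with DESeq2 1.42.0, the likelihood-ratio test, spike-in scaling, replicate blocks and left-out libraries as alternatives. The quasi-likelihood fit was tested on simulated counts modelled on IAA 6 h against control and on B8 +IAA against B8 control. The sequence, summary and figure steps had no such test. Correlations used a prior count of 2. Replicate numbers of run 3 paired libraries over all genes (residual correlations 0.422 to 0.627), and column name sets of run 2 did so too (0.109 to 0.497).

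Hspa8 and all lists were chosen with earlier results of these data known. Genes named are Hspa8, the HSP70 family, per comparison up to 8 HSP70 system genes and 6 snoRNA hosts past the threshold with the largest changes, the nearest neighbours, and the 10 genes most like Hspa8. Calls beyond the rule, such as those with a block, were named after their values were seen. B8HA libraries and factors other than Pol II were not analysed here.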

Additional observations from a re-analysis of the deposited data

Results flagged for a closer look

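Among 30 gaps looked at in groups of 4 B8 libraries, 2 values lay further from the other 3 than Dixon's 95% limit for 4 values. With IAA in B8, library b of run 8 was the lowest for Dnajc6, with 69.2 CPM, and the highest for Tpt1, with 67.9 CPM. Chance flags about 1 in 20 such groups.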

How the results depend on the processing

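Of 49 alternatives to the Hspa8 fold changes other than left-out libraries, 45 stayed within the replicate spread, as did 35 of 40 with a library left out. RA against control and RA +IAA against +IAA changed sign when 1 library was left out. Spike-in read numbers in place of TMM moved the value to -1.56 (IAA 6 h), -0.99 (HS +IAA against HS), -2.05 (B8, run 8) and 0.92 (HS +IAA against +IAA). That scaling moved all genes by -0.61 (B8, run 8) to 0.15 (IAA 6 h), and at IAA 6 h by 1.13 in one number and -0.83 in the other. B8 run 6 was not in it, as control library 2 was the only control there with spike-in numbers. In run 6 log2 mouse reads per spike-in read were 5.89 in that control and 6.44 and 6.45 with IAA, the opposite direction to run 8. With a library left out Hspa8 ranged over -1.87 to -1.58 (IAA 6 h), -2.87 to -1.45 (IAA 16 h), 0.94 to 1.21 (HS +IAA against +IAA) and -0.66 to 0.72 (RA +IAA against +IAA). Where that leaves 1 library in a group, it is assumed to vary like the others. With the replicate block, HSP70 system calls numbered 3 (IAA 6 h), 4 (16 h), 3 (HS +IAA against HS), 3 (RA +IAA against RA), 10 (RA) and 1 (RA +IAA against +IAA), and host calls 16, 10, 9, 7, 17 and 2 in the same order, 11 for HS and 16 for HS +IAA against +IAA. Numbers did not pair B8 libraries (residual correlations -0.0740 and -0.0055), where the block gave 10 host calls. The likelihood-ratio test called 1 system gene at IAA 6 h, 1 with RA and 5 in B8, and 5 hosts at IAA 6 h and 9 in HS +IAA against +IAA. DESeq2 called 1 system gene at IAA 6 h, and 5, 1 and 7 hosts at IAA 6 h, at 16 h and in HS +IAA against +IAA. With a library left out system calls ranged over 0 to 1 (IAA 6 h; 1 without either IAA library or control b), 0 to 2 (16 h), 0 to 7 (B8), 9 to 20 (HS), 6 to 21 (HS +IAA against +IAA) and 0 to 2 (RA; 2 without RA library 2). The cause was not tested. With 2 libraries a group, and 1 residual degree of freedom under the block, the spread itself is poorly known.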
